A study of Bos taurus with 20 samples.

Results

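The keratins, claudins and desmosome genes described here are the genes whose array annotation names a keratin (KRT), a claudin (CLDN), a desmosomal cadherin (DSG or DSC), a plakophilin (PKP), DSP, JUP, PERP, EPCAM or a grainyhead factor (GRHL). They were picked by symbol, and each was read from its array row with the highest mean. The rule found 68 of 11329 named genes: 37 keratins, 17 claudins, 11 desmosome genes, EPCAM, GRHL1 and GRHL3. PERP is not analysed here. All were measured in longissimus dorsi, a muscle that runs along the spine, of Piedmontese × Hereford and Wagyu × Hereford cattle at 60, 135, 195 and 280 days of gestation and at 3, 7, 12, 20, 25 and 30 months after birth. An inactive myostatin makes Piedmontese cattle heavily muscled, Wagyu cattle are bred for marbling fat, and both crosses share a Hereford parent. Each of the 20 data columns stands for 1 cross at 1 age and combines 3 fetuses or 4 postnatal animals. The crosses therefore serve as the pair of samples at each age, and p-values measure the spread between them. Whether the same animal was sampled more than once is not labelled, nor is sex.

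Keratins are the intermediate filament proteins of epithelia. They assemble from 1 acidic (type I) and 1 basic (type II) partner: KRT5 with KRT14 or KRT15 in the basal layer of stratified epithelium, and KRT8 with KRT18 or KRT19 in simple epithelia. Desmosomes are the spot junctions that tie these filaments from cell to cell, with DSG and DSC cadherins in the membrane and JUP, PKP proteins and DSP in the plaque beneath. Claudins are the strand proteins of tight junctions. Some also belong to other tissues: CLDN5 is typical of endothelium, CLDN11 of myelin and of Sertoli cells, and CLDN19 of Schwann cells and kidney tubules. Skeletal muscle fibres are not known as a site of KRT5 or of desmosomes. In bulk tissue, fewer cells of a type and less RNA per cell cannot be told apart.

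Most of the 68 probes were dim in this tissue. For 44 of the 68 genes the value lay below the median of the column in all 20 columns, for 14 in some columns and for 10 in none. Brightness depends on the probe as well as on the RNA, so genes are compared below with themselves over ages and not with each other. No detection flags were used, so a value below the 25th percentile of its column (3.99 to 4.87) is not shown to lie above background, and a difference against such a value is not exact. Over the 10 ages, the mean of both crosses ranged by 3 log2 units or more for 12 genes and by under 1 for 17. The median range of the 68 genes was 1.47 log2 units, and that of all 11329 named genes was 1.80. Ranges of 3 or more were found for 17.6% of the keratin, claudin and desmosome genes and 23.0% of all named genes. The age of highest value was 60 days for 21 genes, 135 days for 4, 195 days for 9 and 280 days for 11. After birth it was 12 months for 1 gene, 25 months for 15 and 30 months for 7, and none of the 68 was highest at 3, 7 or 20 months. Several of those highest at 25 months, such as KRT72, KRT84 and KRT89, lay below the 25th percentile in all 20 columns. The ages of highest value were not counted over all named genes, so they are not shown to be particular to the 68.

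**Figure D1:**
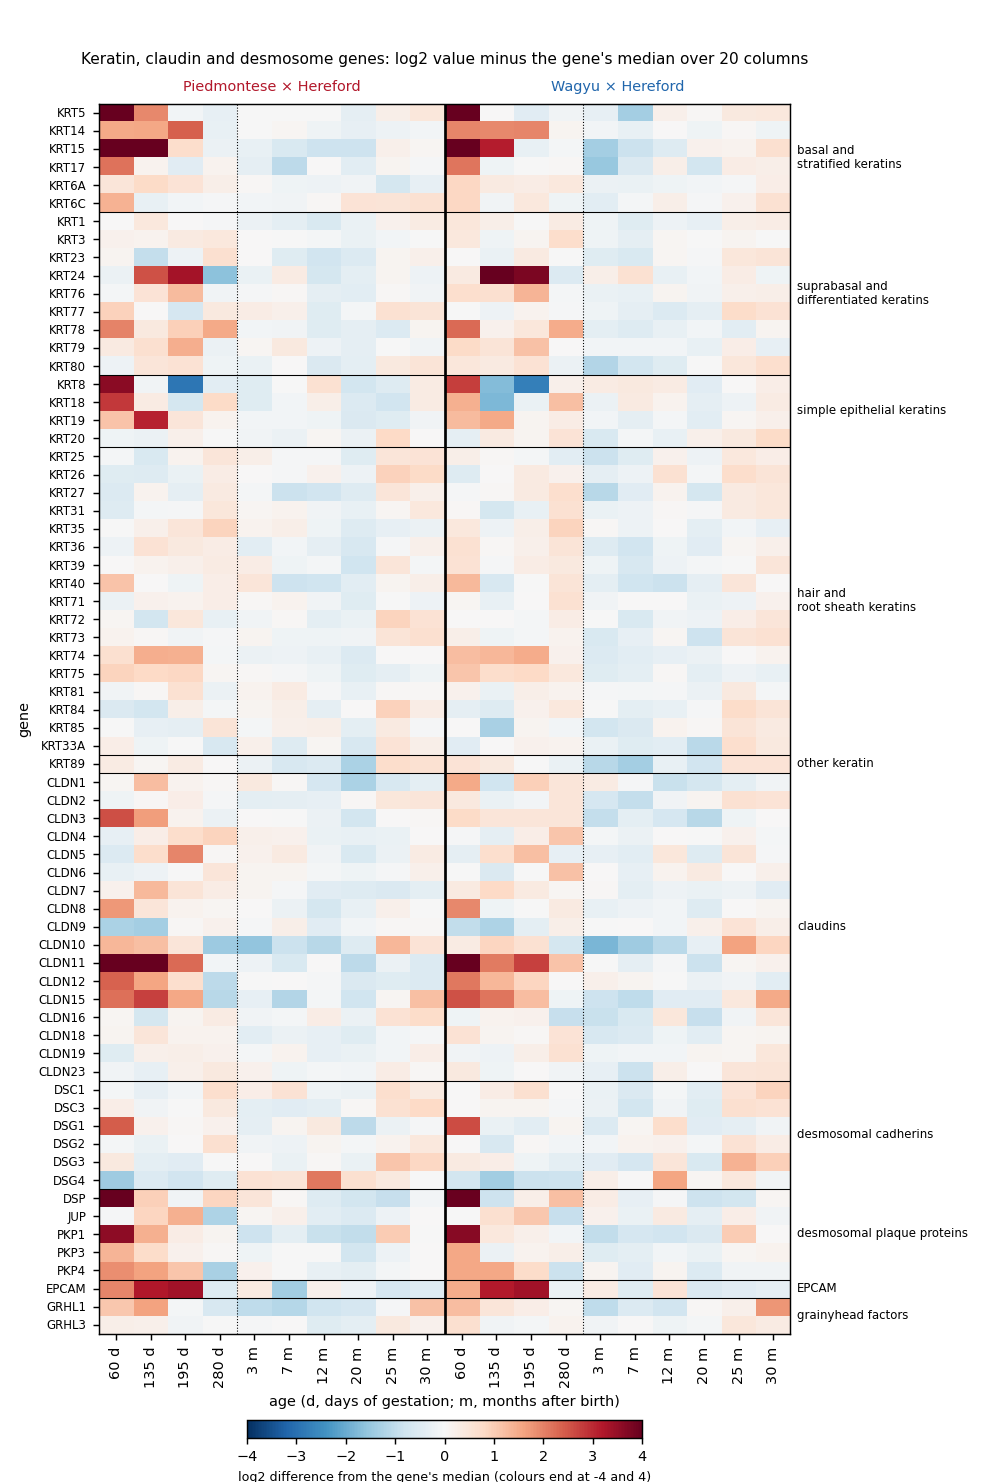
Each cell is the log2 value of 1 gene (rows, by group) in 1 column (Piedmontese × Hereford left, Wagyu × Hereford right, ages low to high, dotted lines at birth) minus that gene's median over the 20 columns. The cells far above the gene's median include KRT5, KRT15, DSP and CLDN11 at 60 days and KRT15 at 135 days. KRT24 and EPCAM are also above it at 135 and 195 days, and most of the hair keratin rows stay near white.

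No slide was common to the fetal arrays (3 slides), the 3 to 20 month arrays (4 slides) and the 25 and 30 month arrays (2 slides). Changes across birth and changes up to 25 or 30 months cannot be told apart from the change of slides. Changes within gestation, and from 3 to 20 months, lie within 1 set of slides. The sampled tissue itself also changed: the mean of 6 measured muscle genes (ACTA1, CKM and others) was 14.72, 16.02, 19.42 and 19.86 at the 4 fetal ages in the Piedmontese cross and 15.87, 17.94, 19.01 and 20.28 in the Wagyu cross, and 5 of these 6 genes were higher at 280 than at 60 days. All 4 measured cartilage genes fell over the same span, with a mean of 4.29 and 4.83 at 280 days, against 11.03 and 9.87 at 60 days, in the Piedmontese and the Wagyu cross. Blood genes stood at a mean of 7.49 (Piedmontese) and 7.34 (Wagyu) at 280 days, against 13.52 and 13.32 at 195 days. Of 5 adipocyte markers 4 rose at 135 against 60 days, with a median of 7.76, and 4 fell at 195 against 135 days, with a median of -4.98. Their mean was 3.42, 9.85, 4.97 and 4.69 over the fetal ages in the Piedmontese cross and 3.94, 8.72, 6.32 and 6.01 in the Wagyu cross. The part of these tissues in the results below was not tested.

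Over gestation KRT15, KRT5 and CLDN11 had the largest falls among the 68 genes. Between 280 and 60 days, 27 of the 68 genes fell (adjusted p under 0.05, limma), where 42.4% of all array rows were lower, and 9 rose, where 18.6% of all rows were higher. The share of genes that moved was thus no larger than on the array as a whole, and the median difference was -0.32 log2 units for the 68 genes and -0.34 for all rows. Each of the 36 changed in the same direction in both crosses. Their p-values measure the spread between the crosses, so the call itself favours such agreement. By role, 5 of 6 basal keratins and 5 of 5 plaque proteins fell, as did 6 of 17 claudins, 3 of 9 suprabasal keratins, 2 of 4 simple keratins, 3 of 17 hair and root sheath keratins, 1 of 6 desmosomal cadherins, 1 of 2 grainyhead factors and EPCAM. The 9 that rose were 4 claudins and 5 hair keratins, by 0.64 to 1.34. Without the Piedmontese column of 60 days, or the Wagyu column of 280 days, 4 rose. The counts depend on how columns are scaled: they were 16 higher and 19 lower after quantile normalisation, and 40 higher and 14 lower with each column centred on its median, which moved the median of all rows to 0.89. Of the 27 that fell, KRT19, KRT24, KRT40, KRT74, KRT75, KRT78, KRT79 and JUP turned to a rise when columns were centred. The falls named with values below, of 2 log2 units or more, kept their sign under both scalings.

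**Figure D2:**
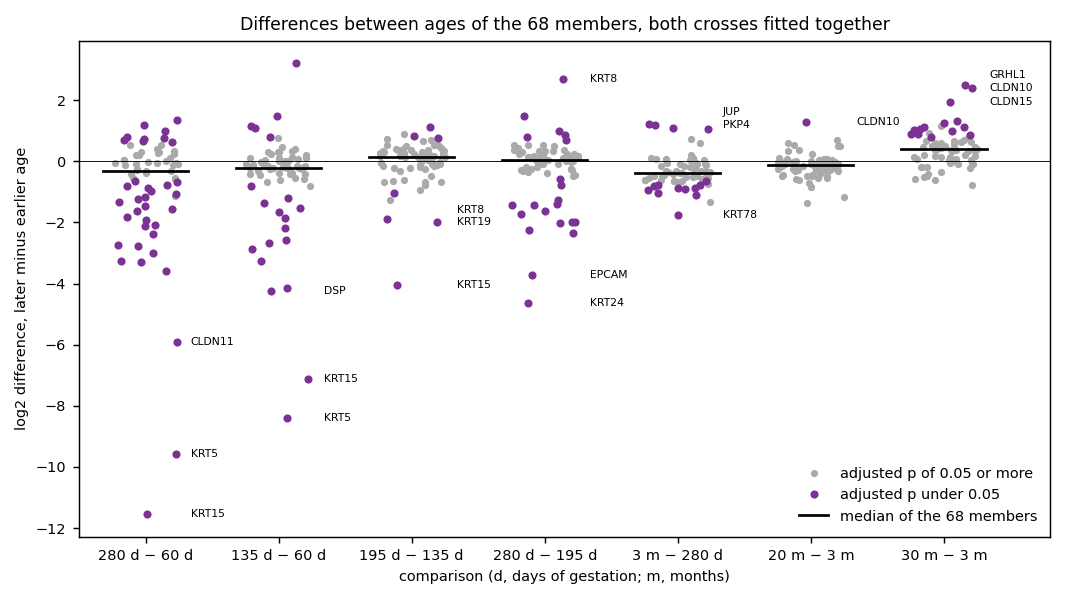
Each point is the log2 difference of 1 of the 68 genes between a later and an earlier age, with both crosses fitted together; purple points have an adjusted p under 0.05, bars are medians, and the genes of largest change are named. KRT15 and KRT5 stand far below the rest in the first comparisons (-11.54 and -9.59 for 280 minus 60 days), while most other genes lie within a few units of 0.

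KRT15 and KRT5, basal keratins of epidermis, had the widest ranges over ages of the 68, 12.21 and 10.05 log2 units. KRT15 was below the column's 25th percentile in 16 of the 20 columns and KRT5 in 1, so the low end of the KRT15 range is uncertain. In the Piedmontese cross KRT15 stood at 14.41, 8.39, 3.72 and 2.80 at 60, 135, 195 and 280 days, and in the Wagyu cross at 14.42, 6.17, 2.73 and 2.96. Over the 12 postnatal columns its lowest, median and highest values were 1.68, 2.63 and 3.66. Both crosses were thus high at 60 days, intermediate at 135 days and low at every later age, with no overlap between 60 days and any other age. KRT5 stood at 14.37, 6.90, 4.86 and 4.66 over the 4 fetal ages in the Piedmontese cross and at 14.29, 4.99, 4.51 and 4.83 in the Wagyu cross. After birth its lowest, median and highest values were 3.61, 4.99 and 5.43. Its fall was nearly complete by 135 days. At 135 against 60 days KRT5 fell by 8.39 ± 0.42 (SE; adjusted p = 3.49e-09) and KRT15 by 7.13 ± 0.52 (adjusted p = 1.17e-07). KRT15 fell further between 195 and 135 days, by 4.06 ± 0.52 (adjusted p = 6.54e-05), a difference against values below the 25th percentile, whereas the KRT5 difference there was -1.26 ± 0.42 (adjusted p = 0.0561). The step between 280 and 195 days was -0.35 ± 0.52 for KRT15 and 0.06 ± 0.42 for KRT5, neither past the threshold. Over the 20 columns KRT5 and KRT15 correlated with r = 0.956, a description over columns that share their ages.

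**Figure D3:**
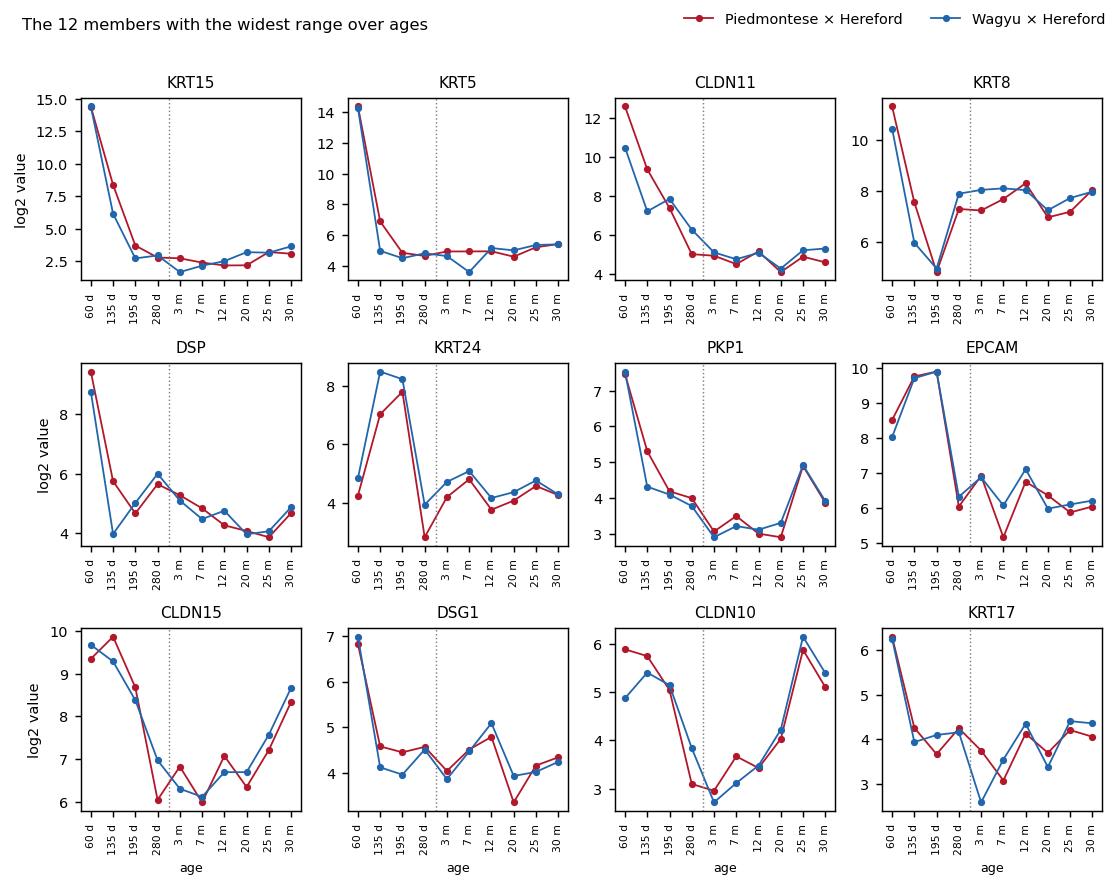
Log2 values over the 10 ages (dotted line at birth) of the 12 genes whose mean over crosses ranges by 3 units or more, with the Piedmontese × Hereford cross in red and the Wagyu × Hereford cross in blue. KRT15, KRT5, DSP, PKP1, DSG1 and KRT17 are highest at 60 days in both crosses, KRT24 and EPCAM at 135 or 195 days, and CLDN10 and CLDN15 are higher again at 25 or 30 months.

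KRT14, the usual type I partner of KRT5, had another time course. It stood at 10.08, 10.11, 10.94 and 8.25 in the Piedmontese cross and at 10.50, 10.49, 10.50 and 8.68 in the Wagyu cross over the 4 fetal ages. It thus held its level through 135 and 195 days, when KRT5 had already dropped, and its 12 postnatal columns lay between 8.24 and 8.64. The KRT14 difference between 135 and 60 days was 0.01 ± 0.24 (adjusted p = 0.979), and KRT14 fell by 2.26 ± 0.24 between 280 and 195 days (adjusted p = 6.06e-07). Its correlation with KRT5 over the 20 columns was 0.475, against 0.918 with EPCAM. KRT17, a keratin of skin appendages and of activated epidermis, followed KRT5: in the Piedmontese cross it stood at 6.30, 4.26, 3.67 and 4.25, in the Wagyu cross at 6.26, 3.94, 4.10 and 4.16, and after birth between 2.59 and 4.41. Only the 60 day columns of KRT17 stood apart, and it fell by 2.18 ± 0.31 between 135 and 60 days (adjusted p = 8.73e-05). KRT6C fell by 1.35 ± 0.26 (adjusted p = 0.0012), and KRT6A differed by less than its error. KRT6C was below the column's 25th percentile in 19 of the 20 columns and KRT17 in 16, so the sizes of their falls are uncertain.

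Among the simple epithelial keratins, KRT8 and KRT18 fell early and rose again in part before birth. At 280 days KRT8 was still lower than at 60 days, by 3.3 ± 0.42 (limma, adjusted p = 2.61e-06). The KRT18 difference over this span was -1.14 ± 0.50 (limma, adjusted p = 0.0596). KRT8 stood at 11.32, 7.55, 4.81 and 7.29 over the 4 fetal ages in the Piedmontese cross and at 10.45, 5.96, 4.95 and 7.89 in the Wagyu cross. After birth its lowest, median and highest values were 6.96, 7.85 and 8.30, so that 195 days was the low point of both crosses. KRT8 fell by 4.13 ± 0.42 at 135 against 60 days (adjusted p = 3.95e-06) and rose by 2.71 ± 0.42 at 280 against 195 days (adjusted p = 4.1e-05). The fall between 195 and 135 days was 1.87 ± 0.42 (adjusted p = 0.00668), and it was lost without the Piedmontese column of 135 days (adjusted p = 0.161) or of 195 days (adjusted p = 0.066). KRT18, its type I partner and its neighbour on the chromosome, stood at 7.83, 5.32, 4.29 and 5.77 in the Piedmontese cross and at 6.41, 3.20, 4.74 and 6.20 in the Wagyu cross. KRT18 fell by 2.86 ± 0.50 between 135 and 60 days (adjusted p = 0.000649) and rose by 1.47 ± 0.50 between 280 and 195 days (adjusted p = 0.0224), the rise being lost without the Piedmontese column of 195 days or the Wagyu column of 280 days (adjusted p = 0.167 each). KRT18 was below the column's 25th percentile in 3 of the 20 columns, among them the Wagyu column of 135 days and the Piedmontese column of 195 days. The sizes of its fall and rise are therefore uncertain. KRT8 and KRT18 correlated with r = 0.802 over the 20 columns.

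KRT19, a keratin of simple and ductal epithelia that lies beside KRT15, peaked later. It stood at 10.17, 12.09, 9.51 and 9.18 in the Piedmontese cross and at 10.29, 10.55, 9.14 and 9.31 in the Wagyu cross, and between 8.44 and 9.24 after birth. The peak at 135 days was thus higher in the Piedmontese column. The rise at 135 against 60 days was 1.09 ± 0.35 (adjusted p = 0.0356, and 0.553 without the Piedmontese column of 135 days), and the fall at 195 against 135 days was 2.00 ± 0.35 (adjusted p = 0.00104). The adipocyte markers rose and fell over the same steps, and their part in the KRT19 peak was not tested. KRT20, an intestinal keratin, stayed between 2.73 and 4.14 in all columns and passed in none of the age comparisons.

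The desmosome genes divided into those that were high at 60 days and those with another course. DSP (desmoplakin, the plaque protein that holds the filaments) stood at 9.43, 5.75, 4.67 and 5.65 in the Piedmontese cross and at 8.76, 3.98, 5.02 and 6.0 in the Wagyu cross, with postnatal columns between 3.87 and 5.28. PKP1, the plakophilin of stratified epithelium, stood at 7.46, 5.31, 4.19 and 4.0 in the Piedmontese cross and at 7.53, 4.32, 4.10 and 3.78 in the Wagyu cross. DSG1, the desmoglein of upper epidermis, stood at 6.83, 4.58, 4.45 and 4.57 in the Piedmontese cross and at 6.99, 4.12, 3.96 and 4.51 in the Wagyu cross. All 3 were highest in both 60 day columns with no overlap with later ages. At 135 against 60 days DSP fell by 4.23 ± 0.39, PKP1 by 2.68 ± 0.26 and DSG1 by 2.56 ± 0.24, with adjusted p between 1.37e-06 and 2.08e-06. PKP3, found in most desmosomes, fell by 1.21 ± 0.28 (adjusted p = 0.00481). PKP1 was below the column's 25th percentile in 15 of the 20 columns and DSG1 in 12, so the sizes of their falls are uncertain. DSP was below it in 4 columns, the Wagyu column of 135 days among them, so the size of its fall is uncertain as well. The other 5 cadherins (DSC1, DSC3, DSG2, DSG3, DSG4) changed in no fetal comparison and lay between 2.71 and 4.17 in all fetal columns.

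PKP4 and JUP, plaque proteins that also occur outside desmosomes, fell late. PKP4 stood at 12.01, 11.74, 11.26 and 8.84 over the fetal ages in the Piedmontese cross and at 11.68, 11.67, 10.86 and 9.28 in the Wagyu cross. JUP (plakoglobin, which also joins classical cadherins) stood at 10.34, 11.24, 11.81 and 9.14 in the Piedmontese cross and at 10.37, 11.02, 11.45 and 9.44 in the Wagyu cross. Both were lowest at 280 days. Between 280 and 195 days JUP fell by 2.34 ± 0.27 (adjusted p = 1.31e-06) and PKP4 by 2.00 ± 0.23 (adjusted p = 1.78e-06). DSP rose by 0.98 ± 0.39 over this step (adjusted p = 0.048), which was lost without any 1 of its 4 columns, with adjusted p up to 0.283 without the Piedmontese column of 195 days.

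Of the claudins, CLDN11 had the largest change. It stood at 12.59, 9.36, 7.37 and 5.0 over the fetal ages in the Piedmontese cross and at 10.48, 7.20, 7.84 and 6.26 in the Wagyu cross, and between 4.08 and 5.29 after birth. CLDN11 was thus high at 60 days in both crosses and 2.11 higher in the Piedmontese column, and it fell by 5.9 ± 0.61 over gestation (adjusted p = 2.06e-07). Its correlation with the mean of the 4 cartilage genes over the 20 columns was 0.894, and that of KRT15 was 0.937; the columns share their ages. CLDN12, a broadly expressed claudin, fell by 2.75 (11.22 and 10.98 at 60 days in the Piedmontese and the Wagyu cross). CLDN15, known from intestine, stood at 9.35, 9.87, 8.68 and 6.04 in the Piedmontese cross and at 9.68, 9.29, 8.38 and 6.97 in the Wagyu cross, and fell by 3.01 ± 0.31 over gestation (adjusted p = 1.73e-07). CLDN10, of kidney and gland epithelium, fell by 1.91 ± 0.31 (adjusted p = 4.01e-05), and CLDN8 by 1.61 ± 0.25 (adjusted p = 2.65e-05). CLDN9, CLDN4 and CLDN6 rose by 1.34 ± 0.23, 1.19 ± 0.27 and 1.0 ± 0.25 over gestation, with adjusted p of 5.94e-05, 0.000839 and 0.00251. The CLDN6 rise was lost without the Wagyu column of 280 days (adjusted p = 0.0517). CLDN6 lies beside CLDN9 and overlaps TNFRSF12A in the gene table, and the strand its probe reads was not checked. The CLDN19 rise of 0.69 ± 0.23 (adjusted p = 0.0136) was lost without the Piedmontese column of 60 days (adjusted p = 0.109) or the Wagyu column of 280 days (adjusted p = 0.113).

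KRT24 and EPCAM were highest in mid gestation. At 135 against 60 days 5 of the 68 genes rose (7.56% of all rows were higher) and 15 fell (12% of all rows were lower). The 5 that rose were KRT24, EPCAM, CLDN5, KRT19 and CLDN7. Without the Piedmontese column of 60 or of 135 days 2 rose, and the CLDN5 rise of 1.15 ± 0.33 (adjusted p = 0.0195) was lost, with adjusted p of 0.135 and 0.0608, as was the CLDN7 rise of 0.79 ± 0.23 (adjusted p = 0.0226), with adjusted p of 0.157 and 0.21. KRT24, a type I keratin of differentiating epithelium, stood at 4.25, 7.03, 7.80 and 2.83 in the Piedmontese cross and at 4.84, 8.49, 8.23 and 3.94 in the Wagyu cross, and after birth between 3.77 and 5.09. It rose by 3.21 ± 0.29 at 135 against 60 days (adjusted p = 1.03e-06) and fell by 4.64 ± 0.29 at 280 against 195 days (adjusted p = 1.21e-09). The KRT24 values of 60 and of 280 days were below the columns' 25th percentiles. The sizes of both steps, and of the later difference against 280 days, are therefore uncertain. EPCAM, an adhesion protein of epithelial cells that binds claudins, stood at 8.52, 9.77, 9.91 and 6.04 in the Piedmontese cross and at 8.03, 9.72, 9.91 and 6.32 in the Wagyu cross, with postnatal columns between 5.16 and 7.11. EPCAM rose by 1.47 ± 0.27 at 135 against 60 days (adjusted p = 0.000946) and fell by 3.73 ± 0.27 at 280 against 195 days (adjusted p = 6.91e-09). KRT24 and EPCAM were thus both high at 135 and 195 days, in columns that did not overlap those of 280 days or of any postnatal age.

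**Figure D4:**
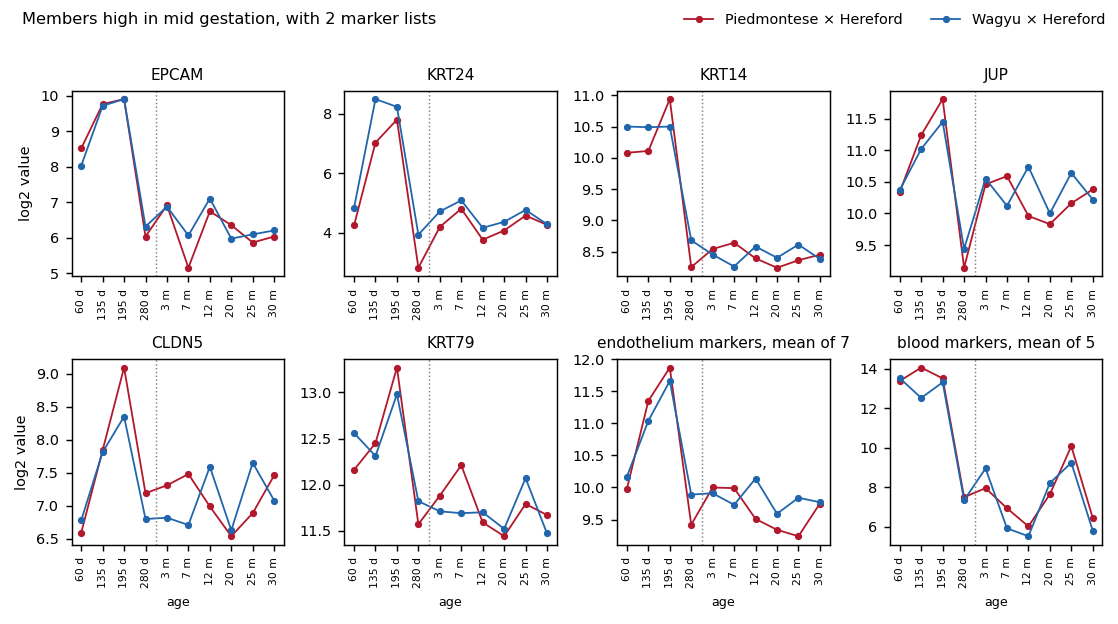
Log2 values of 6 genes with high values in mid gestation, and the means of 7 endothelial markers (CLDN5 among them) and 5 blood markers, over the 10 ages, with the Piedmontese × Hereford cross in red and the Wagyu × Hereford cross in blue. All 8 panels drop between 195 and 280 days in both crosses, EPCAM by 3.73 units in the fitted mean.

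Between 195 and 135 days few genes moved: 3 of the 68 rose, where 5.47% of all rows were higher, and 4 fell, where 9.48% were lower. The 4 were KRT15, KRT19, KRT8 and CLDN15. Without the Piedmontese column of 135 or of 195 days 2 fell, and without the Wagyu column of 135 days 8 did. The CLDN15 fall of 1.05 ± 0.31 (adjusted p = 0.029) was lost without the Piedmontese column of 135 days (adjusted p = 0.309). The rises of CLDN9 (1.12 ± 0.23), KRT84 (0.84 ± 0.24) and KRT79 (0.75 ± 0.23) had adjusted p of 0.00326, 0.0239 and 0.0388, and each was lost without the Piedmontese column of 195 days, with adjusted p of 0.0918, 0.151 and 0.28 and 0 rises left in limma. Without the Wagyu column of 195 days 1 rose. After quantile normalisation 9 genes rose and 5 fell, and with centred columns 14 rose and 4 fell.

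Between 280 and 195 days 15 of the 68 fell (33.6% of all rows were lower) and 6 rose (14.2% were higher). After KRT24 and EPCAM the largest falls were those of JUP, KRT14, CLDN15, PKP4, CLDN11 and CLDN5. CLDN15 fell by 2.02 ± 0.31 (adjusted p = 3.21e-05). The CLDN11 fall of 1.98 ± 0.61 (adjusted p = 0.0129) was lost without the Piedmontese column of 280 days (adjusted p = 0.215) or the Wagyu column of 195 days (adjusted p = 0.102). CLDN5, the endothelial claudin, stood at 6.59, 7.84, 9.09 and 7.19 in the Piedmontese cross and at 6.78, 7.81, 8.35 and 6.80 in the Wagyu cross, and fell by 1.72 ± 0.33 (adjusted p = 0.000281). The other endothelial markers moved with it: 6 of the 7 measured, CLDN5 included, fell over this step and none rose. CLDN5 correlated with the mean of the other 6 with r = 0.793 over the 20 columns. All 5 blood markers also fell over this step, with a median of -6.52, and their mean correlated with EPCAM with r = 0.833 and with KRT14 with r = 0.9. The mean of the 7 endothelial markers correlated with EPCAM with r = 0.89 and with KRT14 with r = 0.858. The part of blood and vessels in the falls of EPCAM, KRT14 and KRT24 was not tested. With columns centred on their median, which put the median of all rows at 0.58, 38 of the 68 rose and 12 fell, and after quantile normalisation 19 rose and 12 fell. Of the 6 rises, 3 were left without the Piedmontese column of 195 days or without the Wagyu column of 195 or 280 days. KRT8 passed without any 1 of the columns compared. KRT18, DSP, CLDN6, KRT78 and KRT31 were each lost without the Wagyu column of 195 or 280 days, with adjusted p of 0.167, 0.277, 0.131, 0.136 and 0.202.

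KRT35 and KRT81, hair keratins, lay between 9.83 and 11.22 and between 10.61 and 11.53 over all 20 columns. KRT79 lay between 11.44 and 13.27 and fell by 1.43 ± 0.23 between 280 and 195 days (adjusted p = 6.14e-05), and CLDN9 lay between 12.96 and 14.85. These 4 never fell below the column median. The rise of KRT35 over gestation, 0.68 ± 0.23 (adjusted p = 0.0156), was lost without the Piedmontese column of 60 days (adjusted p = 0.214). KRT31 (0.76 ± 0.26), KRT26 (0.74 ± 0.25) and KRT27 (0.81 ± 0.34) rose as well, and lost the call without 1 column: KRT31 without the Piedmontese column of 60 days (adjusted p = 0.248), KRT26 without that of 280 days (adjusted p = 0.101) and KRT27 without that of 60 days (adjusted p = 0.222). Most hair and root sheath keratins stayed dim, such as KRT72 (2.34 to 3.96) and KRT25 (2.64 to 4.03). KRT26 and KRT27 were dim as well, below the column's 25th percentile in all 20 columns, so their rises are not shown to lie above background. KRT78, of stratified epithelium, lay beside KRT8 and shared its early fall, by 1.85 ± 0.23 between 135 and 60 days (adjusted p = 2.27e-05).

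The grainyhead factors, transcription factors of epithelial barriers, were dim. GRHL1 stood at 4.98, 5.50, 3.83 and 3.24 over the fetal ages in the Piedmontese cross and at 5.14, 4.39, 4.17 and 3.97 in the Wagyu cross, and fell by 1.45 ± 0.33 over gestation (adjusted p = 0.001). GRHL3 lay between 3.96 and 5.08 in all columns and passed in no comparison.

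Other genes of epithelium gave a mixed account. Of 7 measured surface epithelium markers, 5 fell between 280 and 60 days, KRT5, KRT15 and KRT14 among them, and 2 rose, beside 42.4% of all rows lower and 18.6% higher. COL17A1, a hemidesmosome collagen of basal keratinocytes, was 8.71 and 8.48 at 60 days in the Piedmontese and the Wagyu cross and fell by 4.42 ± 0.23 over gestation (adjusted p = 4.05e-11). Its values at 280 days were below the columns' 25th percentiles, so the size of this fall is uncertain. TP63, the factor that defines basal epidermis, stood at 0.81 (Piedmontese) and 1.69 (Wagyu) at 60 days and rose by 2.14 ± 0.29 over gestation (adjusted p = 4.63e-06). ITGB4, the hemidesmosome integrin, stood at 3.5 and 3.6 at 60 days in the Piedmontese and the Wagyu cross and rose by 3.32 ± 0.25 (adjusted p = 4.08e-09). Both TP63 and ITGB4 were below the 25th percentile of the 60 day columns (4.66 in the Piedmontese and 4.87 in the Wagyu cross), TP63 in every fetal column, so whether their RNA was present there cannot be read from these probes.

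Set beside the same shares of all rows (42.4% lower, 18.6% higher), 4 of 7 measured genes of the epithelial basement membrane fell over gestation and 1 rose, with COL7A1 (anchoring fibril collagen) lower by 4.93 ± 0.30. Of 15 measured epithelial regulators 6 fell and 4 rose. OVOL2 (a repressor that keeps cells epithelial) fell by 2.25 ± 0.25 between 135 and 60 days (adjusted p = 9.5e-06), the step of the KRT5 fall. ZNF750, a factor of late epidermal differentiation, rose by 3.80 ± 0.34 over gestation (adjusted p = 3.75e-08). Of 16 genes of epidermal differentiation 5 fell and 4 rose, with ST14 (a membrane protease) lower by 3.76 ± 0.39 and TGM3 (a cross-linking enzyme of the cornified layer) higher by 3.24 ± 0.25. In both crosses ST14 at 280 days, TGM3 at 60 days and OVOL2 at 135 days lay below the columns' 25th percentiles. The sizes of these changes are therefore uncertain. Of 8 tight junction genes other than claudins 2 fell and 1 rose: CGN (cingulin) fell by 4.94 ± 0.37 and TJP3 rose by 2.40 ± 0.26. The median change of these 4 lists was -1.78, -0.46, 0.05 and 0.02, beside -0.32 for all named genes.

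The 10 other genes whose 20 values followed the mean of KRT5 and KRT15 most closely were CLSTN3, PRSS12, PLD5, BRINP3, HOXD10, SULT4A1, CAMKV, DPEP1, GRM7 and IRX6, with Pearson correlations of 0.983 for CLSTN3 to 0.964 for IRX6. CLSTN3 stood at 12.30, 8.74, 5.79 and 6.0 over the fetal ages in the Piedmontese cross and at 10.96, 6.92, 5.86 and 5.81 in the Wagyu cross. Among the claudins and desmosome genes the nearest were CLDN8 (r = 0.928), PKP1 (r = 0.926), PKP3 (r = 0.906), DSP (r = 0.887), CLDN11 and DSG1 (r = 0.884 each). The columns share their ages, and these correlations describe that course only.

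Across birth, 11 of the 68 genes fell at 3 months against 280 days (14.8% of all rows were lower) and 4 rose (13.8% were higher), with slides changing at the same point. KRT78 stood at 7.74 and 7.45 at 3 months and at 9.37 and 9.33 at 280 days in the Piedmontese and the Wagyu cross, and fell by 1.76 ± 0.23 (adjusted p = 4.25e-05). JUP rose by 1.21 ± 0.27 (adjusted p = 0.0033) and PKP4 by 1.20 ± 0.23 (adjusted p = 0.00133), which brought both back towards their earlier fetal values. These 3 passed without any 1 of the columns compared. The other named falls, of KRT27, KRT17, CLDN4, PKP1, KRT36, CLDN18 and KRT35, were 0.80 to 1.09 and were lost without the Wagyu column of 3 months, with adjusted p between 0.0951 and 0.442. Without that column 1 of the 68 genes fell, without the Wagyu column of 280 days 4 did and without the Piedmontese column of 3 months 6 did. Without either 3 month column 2 rose. With columns centred on their median 4 rose and 23 fell. KRT24 rose by 1.08 ± 0.29 (adjusted p = 0.0108, and 0.116 without the Piedmontese column of 280 days, and 0.0547 without the cross as a block). DSG4, a desmoglein of hair, rose by 1.05 ± 0.28 (adjusted p = 0.0112, and 0.0575 without the Wagyu column of 3 months). DSG4 had its highest values at 12 months, 6.78 in the Piedmontese and 6.23 in the Wagyu column, against 4.51 to 5.30 in the other postnatal columns.

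At 20 against 3 months 1 of the 68 rose (0.913% of all rows were higher) and 0 fell in limma (3.96% of all rows were lower), with 7 lower and 3 higher at an unadjusted p under 0.05. The 1 was CLDN10, at 4.03 and 4.22 at 20 months and 2.96 and 2.72 at 3 months in the Piedmontese and the Wagyu cross, a rise of 1.28 ± 0.31 (adjusted p = 0.0249). The CLDN10 call was lost without any 1 of those 4 columns, with adjusted p of 0.115 to 0.194. Fitted on the 12 postnatal columns alone, 2 genes rose and 4 fell, and after quantile normalisation 2 rose and 1 fell.

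At 30 against 3 months 14 of the 68 rose (18.4% of all rows were higher) and 0 fell in limma (3.49% of all rows were lower), with 3 lower at an unadjusted p under 0.05. Of the 14, 3 passed without any 1 of the columns compared. GRHL1 stood at 5.07 and 5.67 at 30 months and at 2.87 and 2.89 at 3 months in the Piedmontese and the Wagyu cross, and rose by 2.49 ± 0.33 (adjusted p = 0.000182). The GRHL1 values of 3 months were below the columns' 25th percentiles of 4.31 and 4.04, as were those of CLDN10, so the sizes of both rises are uncertain. CLDN10 stood at 5.10 and 5.39 against 2.96 and 2.72 in the Piedmontese and the Wagyu cross, and rose by 2.41 ± 0.31 (adjusted p = 0.000153), its highest values being 5.87 and 6.14 at 25 months. CLDN15 stood at 8.34 and 8.67 against 6.82 and 6.30 in the same crosses, and rose by 1.95 ± 0.31 (adjusted p = 0.000606). All 3 were among the 5 that also rose after quantile normalisation. Of 5 measured adipocyte markers 4 rose over the same months, with a median of 4.27, and their part in these rises was not tested.

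The other 11 rises at 30 months were smaller, 0.81 to 1.32. Of the 14 genes that rose, 12 were among the 44 below the column median throughout, GRHL1 and CLDN10 included, and the other 2 were CLDN15 and PKP1. The median difference was 0.51 log2 units for these 44, -0.06 for the other 24 and 0.61 for the 25% of array rows of lowest mean, with 0.21 for the remaining rows. KRT80 (1.32 ± 0.30, adjusted p = 0.0069), KRT89 (1.25 ± 0.29, adjusted p = 0.00793), DSG3, CLDN16 and CLDN2 were lost without the Wagyu column of 3 months, with adjusted p between 0.154 and 0.285. Without the Wagyu column of 30 months 3 of the 68 rose, without that of 3 months 4 and without the Piedmontese column of 30 months 5. After quantile normalisation 5 genes rose and 5 fell, with centred columns 10 rose and 3 fell, with postnatal columns alone 21 rose and 3 fell, and with the dimmest rows left out 3 of 41 rose. PKP1 stood at 2.91 and 3.31 at 20 months, 4.90 and 4.92 at 25 months and 3.87 and 3.92 at 30 months in the Piedmontese and the Wagyu cross. The slides changed between 20 and 25 months, and the part of slides in these values cannot be told apart from that of age.

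Between the crosses, 0 of the 68 genes passed in limma, where 0.0652% of all rows were higher and 0.214% lower in the Piedmontese cross, and 3 had an unadjusted p under 0.05. The 95% intervals of the Piedmontese minus Wagyu difference lay between -0.80 and 0.83 for all 68 genes. With stage in place of age in the fit they lay between -2.55 and 3.05, and within 1 log2 unit of 0 for 57 of the 68. The smallest p was that of KRT24, which was lower in the Piedmontese column at all 10 ages. Its mean difference was -0.53 ± 0.13 (limma, adjusted p = 0.117). CLDN3 (0.43 ± 0.19) and CLDN16 (0.34 ± 0.16) had adjusted p of 0.54 and 0.591. The change of the cross difference after birth also passed for 0 genes in limma (0.00931% of all rows higher and 0.00931% lower), with 2 at an unadjusted p under 0.05 and intervals between -1.98 and 1.11. These 2 were KRT24 (0.62 ± 0.23) and KRT18 (-0.89 ± 0.41), with adjusted p of 0.751 and 0.868.

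At a single age the 68 genes differed most between the crosses at 135 days. There 10 of the 68 genes (14.7%) were over 1 log2 unit higher in the Piedmontese column and 1, KRT24, over 1 lower. Of all named genes 4.70% were over 1 higher and 1.81% over 1 lower. KRT15 stood 2.23, CLDN11 2.16, KRT18 2.12, CLDN1 2.03 and KRT5 1.91 higher in the Piedmontese column. The CLDN1 difference had the other sign at the neighbouring ages, -1.46 at 60 days and -0.81 at 195 days. At 60 days 4 of the 68 genes were over 1 higher in the Piedmontese column, where 3.32% of all named genes were. Of these 4 genes, 3 were among the 10 of 135 days, and the like share was not counted over all named genes. KRT5 and KRT15 at 60 days were level between the crosses. In the Piedmontese column of 135 days the 6 muscle markers had a mean of 16.02, against 17.94 in the Wagyu column. The 5 adipocyte markers had a mean of 9.85 against 8.72. Each value rests on 1 column with dyes unbalanced between the crosses, so these differences have no test, and the part of muscle content or dye was not tested. The spread of the cross difference over the 68 genes was 0.76 (SD) at 135 days and 0.25 at 30 months. Over all named genes it was 0.51 and 0.28 at these ages, and widest at 60 days (0.59).

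**Figure D5:**
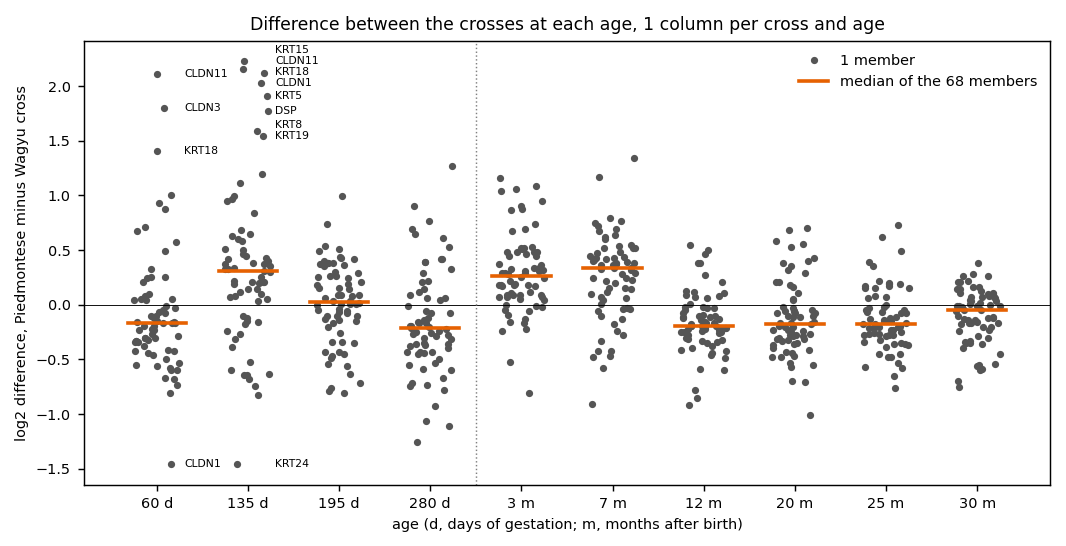
Each point is the Piedmontese minus Wagyu difference of 1 of the 68 genes at 1 age, in log2 units, and orange bars are medians; genes beyond 1.4 are named. The points spread widest at 60 and 135 days, with KRT15, CLDN11, KRT18, CLDN1, KRT5 and DSP high in the Piedmontese column at 135 days.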

How the data were processed

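RNA of 72 animal samples was hybridised to 36 two-colour Agilent arrays, extracted with Agilent Feature Extraction 8.5.1.1 per the submitters' processing notes. The authors deposited 1 column per cross and age, read here as log2 values from their range (-0.64 to 21.75). The sources used here give neither the normalisation, nor the log base, nor how animals were combined. Column medians lay between 5.88 and 7.36, and precision is limited by the number of arrays.

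Of 21475 rows, 12276 carried 1 symbol and 9199 none. limma 3.58.1 in R 4.3.3 (lmFit, eBayes) was fitted on all rows with age and cross as factors (9 residual degrees of freedom), and with a cross by stage term added for that result (8 degrees of freedom). Benjamini-Hochberg adjustment covered all 21475 rows, calls were made at an adjusted p under 0.05, and ± is the standard error. The fit was tested on simulated data, and the outcome is not reported here. Python 3.11.15, pandas 2.3.3, numpy 2.4.6 and matplotlib 3.10.9 made tables and figures. Column values were given in full for genes with a range of 3 or more, and statistics for up to 8 passing genes in each direction per comparison. The genes and lists were chosen with earlier results of these data known. Neighbouring genes come from the ARS-UCD2.0 gene table. KRT76 and CLDN12 had a second row (r = 0.652 and 0.828 with the row used). The cross is the block: both crosses have 1 column at each age.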

Additional observations from a re-analysis of the deposited data

How the results depend on the processing

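Alternatives were quantile normalisation, columns centred on their median, the 25% dimmest rows left out (41 of the 68 genes tested), a prior that follows the mean (trended, robust), averaging a gene's rows, no replicate block (cross left out), fetal or postnatal columns fitted alone, stage in place of age, and each compared column left out. Of the genes that fell between 280 and 60 days, 8 turned to a rise with centring and 5 with quantile normalisation, and KRT75 turned under both for 280 minus 195 days. For 280 minus 60 days the genes that rose numbered 16 (quantile), 40 (centred) and 4 (fetal alone), beside 9, and those that fell 14 (centred), beside 27. For 135 minus 60 days rises numbered 8 (quantile), 8 (centred) and 3 (fetal alone), beside 5. For 195 minus 135 days they numbered 9, 14 and 0 under the same settings, beside 3, and for 280 minus 195 days 19, 38 and 2, beside 6. At 3 months against 280 days 23 fell with centring and 7 without the dimmest rows, beside 11. At 20 against 3 months rises numbered 2 under quantile, centring and postnatal columns alone, beside 1, and falls 1 (quantile) and 4 (postnatal alone), beside 0. At 30 against 3 months rises numbered 5 (quantile) and 3 (dimmest out), beside 14, and falls 5 (quantile), 3 (centred), 1 (trended prior) and 3 (postnatal alone), beside 0. The cause was not tested.

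With 1 column left out, rises and falls numbered 4 to 10 and 22 to 27 (280 minus 60 days), 2 to 4 and 13 to 18 (135 minus 60), 0 to 2 and 2 to 8 (195 minus 135), 3 to 4 and 12 to 15 (280 minus 195), 2 to 5 and 1 to 8 (3 months minus 280 days), 0 and 0 (20 minus 3 months) and 3 to 12 and 0 (30 minus 3 months); a left-out column leaves its age with 1 sample, assumed to vary like the others. Both cross results stayed at 0 in each of these. Without the replicate block, 8 rose and 27 fell over gestation, and no count moved by over 1.5 times. Each column combines animals and no detection flags were used, so changes of dim genes are uncertain, both the 17 below the column's 25th percentile throughout and those dim in part of the columns, such as KRT15.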

Other observations

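Markers of Schwann cells and melanocytes were measured too. Of 3 measured Schwann cell genes, CLDN19 among them, 3 rose between 280 and 60 days, beside 18.6% of all rows higher. S100B rose by 0.93 ± 0.24, and CLDN19 correlated with the mean of the other 2 with r = 0.495 over the 20 columns. The CLDN19 rise depended on single columns, as given above. Of 6 melanocyte genes 1 rose and 2 fell over the same span, beside 18.6% of all rows higher and 42.4% lower.

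Genes that are neighbours on the chromosome did not all share a course. KRT15 and KRT19 correlated with r = 0.682, CLDN3 and CLDN4 with r = 0.018, and DSG1 and DSG4 with r = -0.267 over the 20 columns. CLDN11 and CLDN12, which are not neighbours, correlated with r = 0.929.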
